A study of Rattus norvegicus with 2 samples.

Results

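The angiopoietins, the VEGF ligands and their endothelial receptors were followed in rat bone marrow cultures that the labels call stromal cells, the marrow's supporting connective tissue cells. The set holds 10 genes of the 26912 genes or unmatched transcripts on the array, namely Angpt1, Angpt2, Tek, Tie1, Vegfa, Vegfb, Vegfc, Pgf, Kdr and Flt1. They were chosen by name, through the RefSeq accessions of the probes, and 14 probes with 27 spots per array measured them. The control array held RNA of cells from wild type Sprague-Dawley rats, and the transgenic array held RNA of cells from rats of Sprague-Dawley origin that carry the human angiotensinogen and human renin genes. Cells were seeded at 150000 per well on 6-well plates and lysed before they were confluent. The promoters of the transgenes, the age of the rats and the number of animals or cultures behind each array are not given in the sources used here. Each group had 1 array, so differences could not be checked against replicates or tested, and all values describe these 2 arrays.

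Angiopoietin-1 is a ligand that activates Tie2, the receptor kinase encoded by Tek, and is known as a factor that mural and stromal cells supply to endothelium. Angiopoietin-2 binds the same receptor and can oppose that signal, and Tie1 is a related receptor that modulates Tie2. VEGF-A acts on endothelial cells mainly through VEGFR2, the product of Kdr, while VEGFR1, the product of Flt1, binds VEGF-A, VEGF-B and placental growth factor (Pgf) and can act as a decoy. VEGF-C acts mainly through VEGFR3, the product of Flt4, on lymphatic endothelium. Marrow stromal cells are known as a source of several of these ligands.

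Signals are in scanner units after background subtraction. A probe counted as detected when more than 50% of its spots were well above background by the scanner software. Detected probes made up 60.2% in control and 60.8% in transgenic, and the dimmest of them had 15.3 and 15.9 units. Differences are transgenic minus control in log2, after each array was set to its 75th percentile of probe signal (905 and 1080 units). A size rule of 2-fold stood in for a test. The only errors available are technical, and the scanner software's error of a difference had a median of 0.20 log2. The stromal label was checked on markers. Collagen Col1a1 gave 111314 units in control and 86945 in transgenic. Of the other stromal markers, Lepr was detected on neither array (3.86 and 3.99 units). Vcam1 was detected in transgenic only (18.4 units in control, 113 in transgenic). Markers of blood cells were present too. In control Lyz2 gave 8372 units, Tyrobp 2141, Pf4 1505, Laptm5 1110 and Fcer1g 985. In transgenic they gave 66.3, 55.4, 98.3, 187 and 52.8. Cd14 and Cd68 went the other way, with 590 and 602 units in control and 2426 and 2152 in transgenic. Ptprc was detected on neither array, and Csf1r was dim (74.8 and 62.8 units on one probe, 45.5 and 83.1 on another). Of the endothelial genes, Pecam1 was detected on neither array, while Cdh5 gave 214 and 171 units and Erg 556 and 31.5. The control array thus held RNA of genes typical of blood cells beside that of stromal cells, though not all such genes were brighter there.

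The 10 genes split by detection. Both arrays detected 6 of them (60%), Angpt1, Vegfa, Vegfb, Vegfc, Pgf and Flt1, where 57.6% of all genes on the array were detected on both. The other 4, Angpt2, Tek, Tie1 and Kdr, were detected on neither array, as were 36% of all genes. No member was detected on 1 array only and no member spot was marked as an outlier. The ligands were thus mostly detected (5 of 6) and the receptors mostly not (1 of 4). Of the 6 detected genes, 2 passed 2-fold upward in transgenic (background 10.5% of 15501 genes), 1 passed it downward (background 10.3%, or 20.8% for either direction) and 3 lay within 2-fold. Their median difference was 0.16 log2, against -0.07 log2 for all genes detected on both arrays. With so few members these shares are descriptions.

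**Figure D1:**
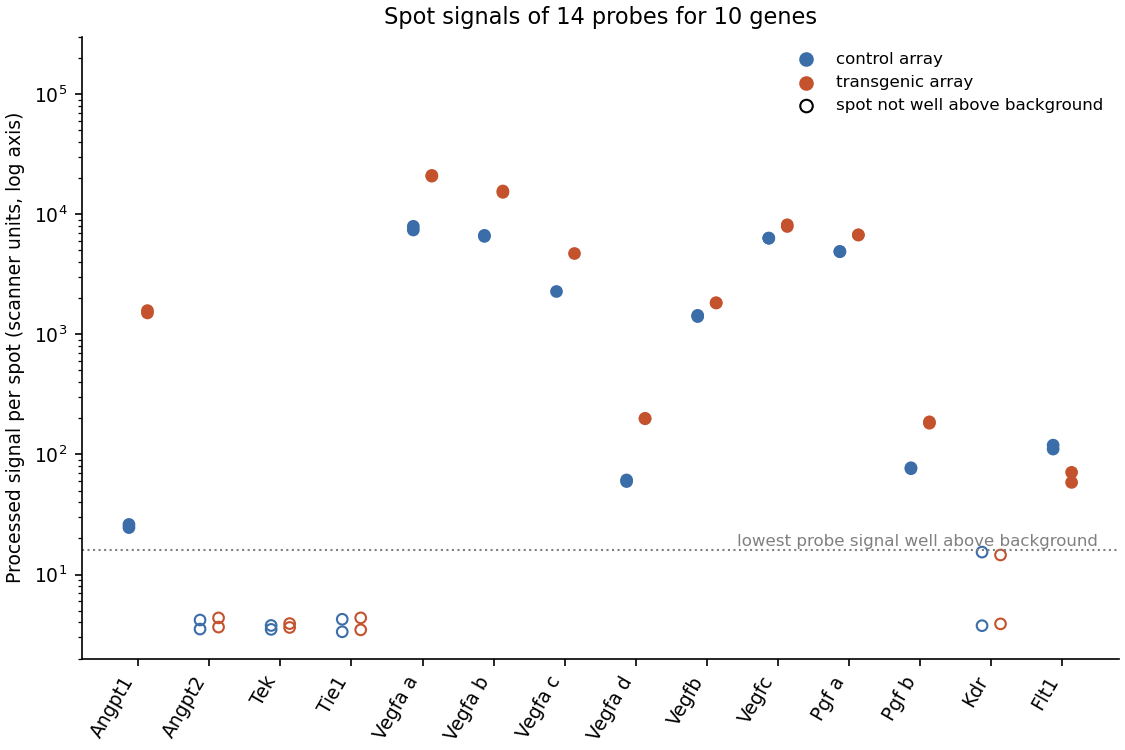
Processed signal of every spot (scanner units, log axis) for the 14 probes of the 10 genes, with control spots in blue, transgenic spots in orange and spots not well above background as open circles; letters after a gene name mark its probes from brightest to dimmest on the control array. Angpt1 moved from near the detection limit (dotted line, 15.9 units) to 1506 units and more, all Vegfa probes were brighter on the transgenic array, and Angpt2, Tek, Tie1 and Kdr stayed below the line on both arrays.

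Angpt1 had the largest difference of the set. Its 2 spots gave 26.1 and 24.6 units on the control array and 1506 and 1575 units on the transgenic array. The spots of the arrays lay far apart, and the control spots stood just above the detection limit, with unsubtracted signals of 71.0 and 65.5 units over local backgrounds of 39.0 and 32.5. The scaled difference was 5.67 log2, or 50.9-fold higher in transgenic, with a 95% interval of 5.09 to 6.25 log2 from the software's error, which covers spot measurement only. Angpt1 ranked 26 from the top of 15501 genes, so that 0.16% of genes had a larger positive difference. The size was smaller under some processing. Normexp background correction, which adds an offset to all signals, gave 3.95 log2 (15.4-fold), and the authors' processed values gave 4.04 log2 (16.4-fold). Under all 10 alternatives that gave a value Angpt1 remained more than 2-fold higher. Of those, the mean over probes and the lack of a background filter could not move a gene with 1 detected probe. Keeping outlier spots also left it at 5.67 log2.

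By size of difference, the genes nearest to Angpt1 were Pde2a, a phosphodiesterase (5.66 log2 higher), the chemokine Ccl7 (5.64) and the metallothionein Mt1 (5.74). This likeness rests on 1 difference per gene over 2 arrays. Angpt4, a further ligand of Tie2, was detected only on the transgenic array. It had 187 units there against 8.80 units in control, which makes it at least 10.2-fold higher.

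Angpt2, the context-dependent antagonist of Tie2, differed from Angpt1 in being undetected. Its spots gave 4.18 and 3.52 units in control and 4.36 and 3.65 units in transgenic, so the arrays overlapped. The receptors were as dim. Tek had 3.49 and 3.77 units in control and 3.63 and 3.91 units in transgenic. Tie1 had 4.24 and 3.34 units in control and 4.36 and 3.46 in transgenic. No fold is given for these 3 genes, since neither array measured them above background. The ligand Angpt1 was therefore bright in transgenic on an array where its receptor Tek was not detectable with this probe.

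Vegfa, the main angiogenic VEGF ligand, was measured by 4 probes, and each was brighter on the transgenic array. The brightest probe, on NM_031836, gave 7384 and 7926 units in control and 20727 and 21029 in transgenic. After scaling it was 1.19 log2 (2.29-fold) higher, with an interval of 0.79 to 1.59 log2, and 7.93% of genes had a larger difference. A second bright probe, on NM_001110334, gave 6667 and 6532 units in control and 15198 and 15596 in transgenic, a difference of 0.97 log2, just under 2-fold.

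The single-spot probe on NM_001110334 went from 2303 to 4763 units, or 0.79 log2 (1.73-fold). The dimmest probe, also on NM_031836, gave 59.5 and 61.3 units in control and 200 and 198 in transgenic, or 1.47 log2 (2.76-fold). All 4 probes thus had the same sign, and 2 of 4 passed the size rule. With normexp correction the dim probe stood at 0.85 log2 and the brightest at 1.22. In the authors' deposited table they stood at 0.93 and 1.18 log2. The scanner files hold no probe sequences, so which Vegfa splice forms each probe can bind was not examined.

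The other VEGF ligands were bright on both arrays and differed little after scaling. Vegfc, the lymphatic ligand, had 6300 and 6330 units in control and 8160 and 7898 in transgenic. Its scaled difference was 0.09 log2, with an interval of -0.31 to 0.49. Vegfb, a ligand of VEGFR1, had 1438 and 1405 units in control and 1826 and 1827 in transgenic. That is 0.11 log2 after scaling, with an interval of -0.29 to 0.51. The unscaled signals of Vegfc and Vegfb in transgenic were 1.27 and 1.28 times those in control, and scaling took most of that difference away.

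Pgf, the placental growth factor, had a pair of probes that differed in size of change. The bright probe gave 4868 and 4900 units in control and 6727 and 6707 in transgenic, a scaled difference of 0.21 log2 with an interval of -0.19 to 0.61. The dim probe gave 77.4 and 76.0 units in control and 182 and 187 in transgenic, a scaled difference of 1.01 log2 (2.01-fold) with an interval of 0.58 to 1.44. Both probes carry the accession NM_053595 and had the same sign. The dim probe's difference was 0.54 log2 with normexp correction and 0.62 log2 in the authors' deposited table. The mean over both probes was 0.61 log2. Counted by probe, 4 of the 10 detected member probes were at least 2-fold higher (background 10.6% of 17375 probes) and 1 was at least 2-fold lower (background 10.3%).

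Flt1, which encodes VEGFR1, was the only member receptor detected and the only member lower in the transgenic array. It was dim, with 111 and 119 units in control and 58.5 and 70.9 in transgenic. The scaled difference was -1.09 log2 (2.13-fold lower), with an interval of -1.55 to -0.64, and 8.61% of genes had a lower value. It lay close to the size rule and did not pass it under loess normalization (1.999-fold lower), normexp correction (-0.70), the authors' processed values (-0.58) or scaling on the spike-in controls (-0.0066). It passed in 6 of the 10 alternatives that gave a value. Of those 6, the mean over probes and the lack of a background filter could not move a gene with 1 detected probe. Keeping outlier spots also left it at -1.09 log2. Kdr, which encodes VEGFR2, was not detected. Its spots disagreed on both arrays, with 3.75 and 15.4 units in control and 3.88 and 14.6 in transgenic, and the arrays overlapped.

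Markers of monocytes and of endothelial cells, both known to express Flt1, also differed between the arrays. Of 13 monocyte and macrophage markers, 8 were detected on both arrays, 5 of them at least 2-fold lower and 2 (Cd14 and Cd68) higher in transgenic. These shares, 62.5% lower and 25% higher, stand against 10.3% and 10.5% of all genes. The summed signal of all 13 was 14295 units in control and 5112 in transgenic, of which Lyz2 gave 8372 and 66.3. Lyz2 differed by -7.23 log2 and Tyrobp by -5.53, or by -6.15 and -4.31 with normexp correction. Of the 16 endothelial markers with a probe, 4 were detected on both arrays and 9 on neither, among them Pecam1, Emcn, Cldn5, Lyve1 and Prox1, and no probe matched Vwf. Erg was 21.0-fold lower (-4.39 log2, but -2.77 with normexp correction and -2.70 in the authors' deposited table), Eng was 5.22-fold higher, and Cdh5 and Sox18 differed by -0.58 and -0.44 log2. The summed endothelial signal was 1335 units in control and 2460 in transgenic, of which Eng gave 333 and 2075. The part of these cell types in the Flt1 difference was not tested, and fewer cells of a type cannot be told apart from less RNA per cell.

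Mural cells, the pericytes and smooth muscle cells around vessels, are a known source of Angpt1. Of 12 markers of these cells, 10 were detected on both arrays. Of the 10, 6 (60%) were at least 2-fold lower and 0 higher in transgenic, against 10.3% and 10.5% of all genes, and the median was -1.24 log2. With spike-in scaling 3 were lower and 1 higher, where 2.21% of all genes were lower and 50.8% higher, and the median was -0.15 log2. Myh11 was 15.1-fold lower, Mcam 7.05-fold, Cspg4 5.62-fold and Acta2 4.14-fold, and Pdgfrb differed by -0.87 log2. The list's summed signal was 399077 units in control and 152401 in transgenic. The part of mural cells in the Angpt1 difference was not tested. Stromal markers were mixed. Of the 12, 10 were detected on both arrays, Vcam1 on the transgenic array only and Lepr on neither. Of the 10, 3 (30%) were higher, led by Cxcl12 (8.55-fold on its main probe, 55.2-fold on the other) and Pdgfra (3.30-fold). Another 2 (20%) were lower, Col3a1 (5.71-fold) and Col1a2 (2.11-fold, but -0.96 log2 in the authors' deposited table and 0.01 with spike-in scaling). With spike-in scaling, where the median of all genes was 1.01 log2, 6 stromal markers were higher and 1 lower. Among marrow progenitor and platelet markers, a group in which Tek can also be expressed, 4 of 8 were detected on both arrays. Of these 4, 1 (25%) was at least 2-fold lower and 0 higher, against 10.3% and 10.5% of all genes. Pf4 was 18.3-fold lower and Gata2 1.99-fold lower, while Tal1 and Gp9 differed by 0.32 and 0.21 log2. Kit, Gata1, Cd34 and Gfi1b were detected on neither array.

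**Figure D2:**
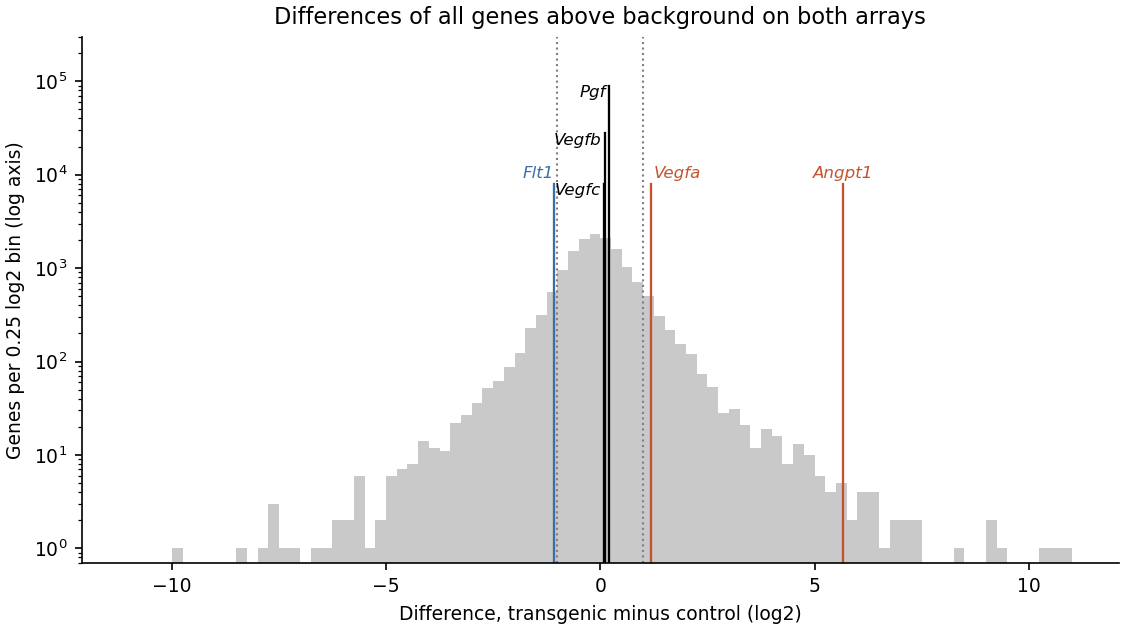
Number of genes per 0.25 log2 bin (log axis) by the difference transgenic minus control, for the 15501 genes detected on both arrays, with the 6 detected members as vertical lines (orange at least 2-fold higher, blue at least 2-fold lower, black within 2-fold; dotted lines mark 2-fold). Vegfb, Vegfc and Pgf lay in the centre, Vegfa and Flt1 just outside the 2-fold lines, and Angpt1 in the right tail at 5.67 log2.

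These differences are relative to the other genes of each array. With the arrays scaled on 8 E1A spike-in probes, the median of all genes moved from -0.07 to 1.01 log2, and 7874 genes passed 2-fold upward and 342 downward. Upward differences were then 95.8% of all those past 2-fold, in place of 50.6%. On that scale Vegfa stood at 2.28 log2, Pgf at 1.29, Vegfb at 1.19 and Vegfc at 1.18, all past 2-fold, and Flt1 at -0.0066. Relative to the median gene, Pgf, Vegfb and Vegfc lay within 2-fold and Flt1 lay below it. Spike-in scaling shifts all genes by the same amount, so it could not change these positions.

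**Figure D3:**
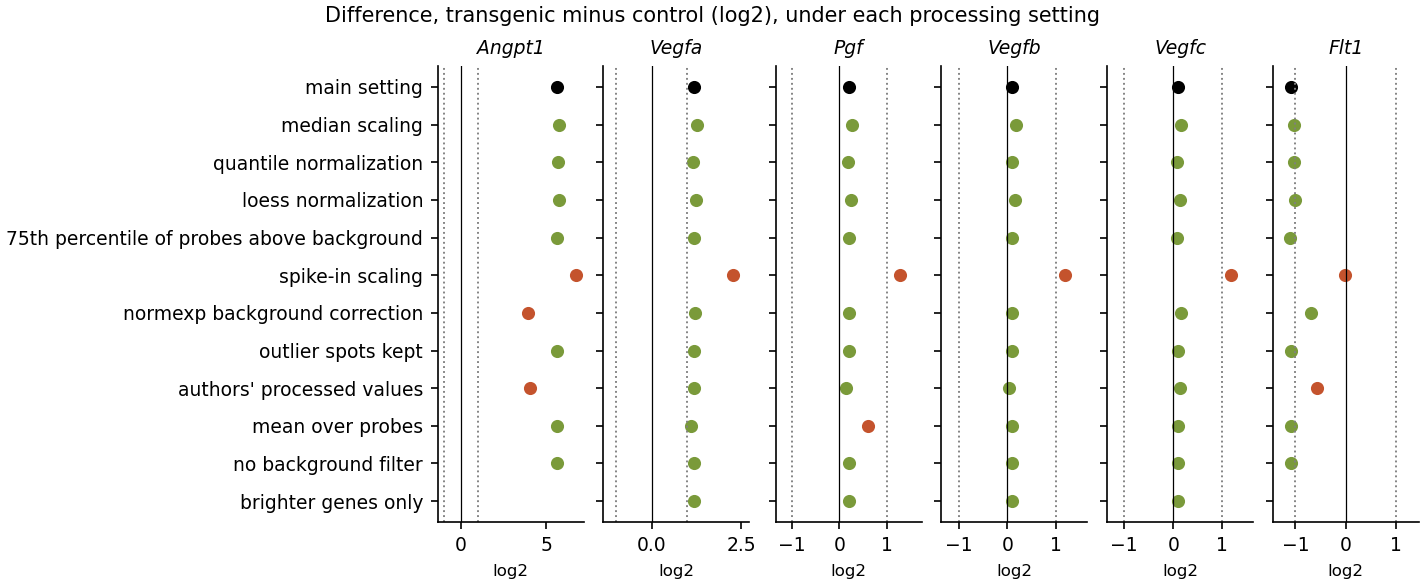
Difference transgenic minus control (log2, one panel per detected gene) under the main setting (black) and each processing alternative; green points lie within the 95% interval of the software's error around the main value and orange points outside it, and dotted lines mark 2-fold. Spike-in scaling shifted all 6 genes upward, while normexp correction and the authors' processed values brought the dim genes Angpt1 (3.95 and 4.04 log2) and Flt1 (-0.70 and -0.58 log2) closer to 0. Angpt1 and Flt1 have no value among the brighter genes.

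Sequences upstream of the transcript start were taken from RefSeq (build GRCr8) for 7 of the 10 members; Angpt1, Angpt2 and Tek had no entry. Shown are the 250 bases before the start for Vegfa, the ligand with concordant probes, for Flt1 and for Kdr. Flt1 was the member receptor that was detected, and Kdr the VEGF receptor of the set that was not. Capitals mark matches, on either strand, to the motifs searched. These were the Sp1 box with the letters GGGCGG, the core of the hypoxia response element in the form ACGTG and, searched separately, in the form GCGTG, the AP-1 site TGAGTCA, the cyclic AMP response element TGACGTCA, the TATA box with the letters TATAAA, and the NF-kappaB consensus by its name. No match in these 3 windows overlapped another. Vegfa lies at chr9:22452604-22452853 on the plus strand, Flt1 at chr12:12333180-12333429 on the plus strand, and Kdr at chr14:32571813-32572062 on the plus strand.
Vegfa: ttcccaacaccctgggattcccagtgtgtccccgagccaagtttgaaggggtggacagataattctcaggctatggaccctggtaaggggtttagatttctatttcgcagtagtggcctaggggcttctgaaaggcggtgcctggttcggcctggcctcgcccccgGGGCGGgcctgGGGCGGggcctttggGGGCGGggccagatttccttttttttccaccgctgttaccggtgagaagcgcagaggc
Flt1: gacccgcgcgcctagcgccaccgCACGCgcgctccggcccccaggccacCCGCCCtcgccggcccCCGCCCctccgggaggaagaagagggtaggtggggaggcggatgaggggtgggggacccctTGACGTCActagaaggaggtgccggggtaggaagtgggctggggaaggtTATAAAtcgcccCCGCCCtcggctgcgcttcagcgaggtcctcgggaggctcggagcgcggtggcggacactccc
Kdr: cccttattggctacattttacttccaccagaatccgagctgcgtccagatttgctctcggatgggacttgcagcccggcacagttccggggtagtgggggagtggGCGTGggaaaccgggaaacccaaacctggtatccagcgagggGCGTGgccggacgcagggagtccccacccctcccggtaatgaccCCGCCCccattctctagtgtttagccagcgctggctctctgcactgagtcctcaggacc

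The Vegfa window held 3 matches to GGGCGG on the gene's own strand, within 84 bases of the start, and none of the other motifs. A second Vegfa window in the table, at an internal start, held no match. The Flt1 window held 3 matches to GGGCGG on the opposite strand, 1 to GCGTG, 1 to TGACGTCA at 124 to 117 bases before the start, and TATAAA at 75 to 70 bases before it. The Kdr window held 2 matches to GCGTG and 1 to GGGCGG. Among 33465 such windows of all genes, GGGCGG was found in 30.5%, GCGTG in 25.9%, ACGTG in 16.6%, TATAAA in 12.9%, TGAGTCA in 4.05%, TGACGTCA in 1.59% and the NF-kappaB consensus in 0.0956%. In the windows of Vegfb, Vegfc, Pgf and Tie1, GGGCGG matched 4, 2, 2 and 1 times, and GCGTG matched once each in Vegfb and Pgf. These are matches of letters only, and bases farther upstream than 250 were not searched.

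Co-receptors and relatives of the 10 genes were measured by a list of 13 genes, of which 9 had a probe and 8 were detected on both arrays. In that list 0 were at least 2-fold higher and 2 (25%) lower in transgenic, against 10.5% and 10.3% of all genes, and the median was -0.13 log2, or 0.95 log2 with spike-in scaling where the median of all genes was 1.01. Flt4, which encodes VEGFR3, the receptor of VEGF-C, was 4.30-fold lower on its bright probe (2040 units in control, 566 in transgenic) and 1.70-fold lower on its dim probe. Sdc2, the heparan sulphate proteoglycan syndecan-2, was 5.17-fold lower. The neuropilins Nrp1 and Nrp2, which bind VEGF beside its receptors, differed by 0.18 and -0.03 log2, and Vegfd, the other ligand of VEGFR3, by 0.57 log2. The ligand Vegfc (0.09 log2) and its receptor Flt4 (-2.10 log2) thus differed in unlike ways on the same arrays. Both receptor genes of the VEGFR family that were detected, Flt1 and Flt4, were lower in transgenic. Spike-in scaling left Flt1 at -0.0066 log2, where the median of all genes was 1.01.

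Of 42 genes that carry signals from VEGF receptors and Tie2, 36 had a probe and 31 were detected on both arrays. At least 2-fold higher were 4 (12.9%) and lower 4 (12.9%), near the background of 10.5% and 10.3%, and the median was 0.03 log2. The higher genes were Pik3r1, the regulatory subunit of PI3 kinase (2.86-fold), the kinases Akt2 (2.38-fold) and Akt1 (2.26-fold), and Map2k1 (2.22-fold). Akt2, a dim gene, stood at 0.61 log2 with normexp correction and 0.70 in the authors' deposited table, and so within 2-fold. The lower genes were Grb14, an adaptor (8.95-fold on its main probe, 7.23-fold on the other), Ptk2, the focal adhesion kinase (4.96-fold), the small heat shock protein Hspb1 (2.10-fold) and the kinase Yes1 (2.05-fold). The last pair also came within 2-fold in the authors' deposited table (-0.99 and -0.72 log2). With spike-in scaling the pair stood at 0.02 and 0.05 log2, where the median of all genes was 1.01. Nos3, the endothelial nitric oxide synthase, was detected on the control array only, at least 2.92-fold lower in transgenic in the main setting. Dok2, an adaptor bound by Tie2, was detected on neither array. With spike-in scaling 18 of the 31 were higher and 2 lower, where 50.8% of all genes were higher and 2.21% lower.

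Vegfa is a known target of hypoxia-inducible factors, and genes of that response were higher alongside it. Of 25 such genes detected on both arrays, Vegfa not included, 17 (68.0%) were at least 2-fold higher in transgenic and 0 lower, with a median of 1.54 log2, against a background of 10.5% higher and a median of -0.07. Of the genes for the factors themselves, Epas1 was 8.02-fold higher and Hif1a 4.48-fold higher (1.48 log2 with normexp correction). Hif3a was dim, with 22.7 units in control and 25.8 in transgenic and detection in transgenic only, and Arnt, the partner of these factors, was detected on neither array. Egln3 (6.69 log2, or 5.19 with normexp correction), Adm (6.14), Ddit4 (3.18) and Slc2a1 (3.10) had the largest differences of the list. The Vegfa difference of 1.19 log2 lay below the median of this list, near those of Bnip3l (1.20) and Eno1 (1.18). The part of this response in the Vegfa difference was not tested.

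**Figure D4:**
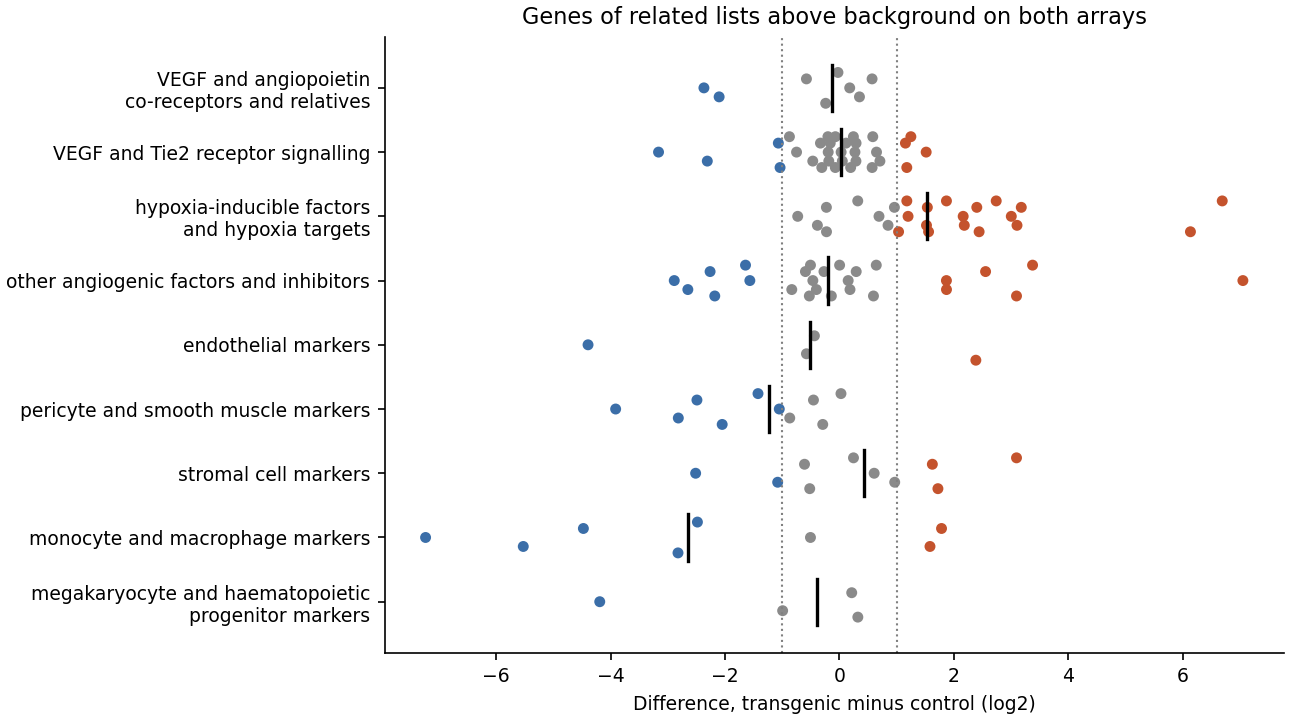
Difference transgenic minus control (log2) of each gene detected on both arrays in the 4 pathway lists and 5 marker lists, with black bars at the list medians and dotted lines at 2-fold (orange higher, blue lower, grey within 2-fold). The hypoxia list lay to the right (median 1.54), the receptor signalling list was centred near 0 (median 0.03), and the mural and macrophage markers lay to the left (medians -1.24 and -2.65).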

How the data were processed

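RNA of each group was hybridised to 1 Agilent 1-colour rat array. Per the file headers, the deposited intensity values were made by the authors' scanner software, Feature Extraction 11.0.1.1 from Agilent, after background subtraction, on 1 slide in 1 scan. The deposited flags for outlier and background spots were used as given. The authors' deposited table of log2 values (23153 of 30367 probes; column medians 7.20 and 7.18) was an alternative only. No source used here states its normalization, and its centring is unknown. Over 11822 genes, which are not replicates, its differences had r = 0.979 and a slope of 0.822 against those from the scanner files.

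Marked outliers (446 spots in control, 505 in transgenic) were dropped, and log2 signals of repeated spots averaged per probe. No spot was saturated. Each array's 75th percentile was subtracted. Accessions were matched without versions to RefSeq (GRCr8), which named 18005 probes for 15168 genes. The array grid used build rn4, so gene coordinates are not given. The brightest probe stood for a gene. A gene detected on 1 array got a lower bound, against the higher of its own dim signal and the dimmest detected signal. Such bounds hold for the main setting only. The scaling and size rule were run on simulated data whose changes lay well past the size rule, with little noise. That run checked the code only and says nothing on genes near 2-fold. No test between groups was possible.

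Alternatives were other scalings (median, quantile, loess, spike-in), normexp on median signals with offset 50 (limma 3.58.1, R 4.3.3), other filters, the mean over probes and other size rules. The members and lists were chosen with earlier results of these data known. Named were all members, the first genes of each list by size, co-receptors and defining markers. Outside this rule, Map2k1, Hspb1, Yes1, Hif1a, Hif3a, Arnt, Bnip3l, Eno1, Dok2, Kit, Gata1, Gfi1b, Cd34, Angptl2, Angptl6, Emcn, Cldn5, Lyve1, Prox1, Cd14, Cd68, Col1a2, Lepr and Vcam1 were named after their values were seen.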

Additional observations from a re-analysis of the deposited data

How the results depend on the processing

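No paired analysis was possible because each group had 1 array, and for the same reason no replicate could be left out. Across the alternatives Angpt1 and Vegfa stayed at least 2-fold higher wherever they had a value, and Flt1 passed 2-fold in 6 of 10. For Angpt1 and Flt1, with 1 probe each, the mean over probes and the lack of a background filter could not change the value. Spike-in scaling gave 6.76 log2 for Angpt1, 2.28 for Vegfa, 1.19 for Vegfb, 1.18 for Vegfc, 1.29 for Pgf and -0.0066 for Flt1, with 5 members higher and 0 lower. Normexp correction gave 3.95 for Angpt1 and the authors' processed values gave 4.04 for Angpt1 and -0.58 for Flt1. The mean over probes gave 0.61 for Pgf. Members lower numbered 0 under loess, normexp, the authors' values, the brighter genes and 4-fold; members higher numbered 1 among brighter genes and at 4-fold.

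Genes higher and lower numbered 7874 and 342 with spike-in scaling, 905 and 908 with the authors' values, 2674 and 2900 without a background filter, 792 and 599 among brighter genes, 2954 and 3489 at 1.5-fold and 443 and 368 at 4-fold. List medians with spike-in scaling were 0.95 (co-receptors), 1.11 (signalling), 2.62 (hypoxia), 0.88 (other angiogenic factors), 0.58 (endothelial), -0.15 (mural), 1.51 (stromal), -1.57 (macrophage) and 0.70 (progenitor). Among brighter genes, where few members are left, they were -2.10 (co-receptors), 0.0027 (other angiogenic factors), 2.38 (endothelial), -2.05 (mural) and 1.58 (macrophage, the opposite sign). Without a background filter the endothelial median was -0.29 and the macrophage median -1.33, and the macrophage median was -2.12 with normexp, -2.09 with the authors' values and -3.58 with the mean over probes. Beyond the change of scale or of genes counted, the cause of these shifts was not tested. Low signal limits Angpt1 in control, Flt1, the dim Vegfa and Pgf probes, and the 4 undetected genes.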

Other observations

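Other angiogenic factors and inhibitors, a list of 40 genes of which 35 had a probe, held as many higher as lower genes. Of 26 detected on both arrays, 6 were at least 2-fold higher and 6 lower in transgenic (23.1% each, against a background of 10.5% and 10.3%), with a median of -0.21 log2. With spike-in scaling 12 were higher and 4 lower, where 50.8% and 2.21% of all genes were. Higher were Angptl4, an angiopoietin-like protein that does not bind Tie2 (133-fold), the angiogenesis inhibitor Thbs2 (10.4-fold) and the chemokine Cxcl12 (8.55-fold on its main probe, 55.2-fold on the other). Lower were Cxcl10, an angiostatic chemokine (7.40-fold), and the Notch ligand Jag1 (6.28-fold). The endothelial peptide apelin, Apln, was detected on the transgenic array only (343 units against 3.45) and was at least 18.8-fold higher. Sema3e was detected on the control array only (138 units against 18.5) and was at least 8.91-fold lower. Hgf, detected in transgenic only at 35.2 units, was at least 1.93-fold higher. The bounds of Apln, Sema3e and Hgf hold for the main setting only. The other relatives Angptl2 and Angptl6 differed by -0.47 and 0.29 log2.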
